A study of Mus musculus with 5 samples.

Results

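Alpha cells are the glucagon-secreting endocrine cells of the pancreatic islet. They were taken here from the 1 library of islets from non-pregnant C57BL/6 mice, made by inDrop, a droplet method that captures polyadenylated RNA of single cells and marks every captured molecule with its own identifier (UMI). The rule used hormone transcripts alone. A cell was a member when Gcg, which encodes proglucagon, made up at least 10% of its UMIs, was more than 5 times the sum of the insulin genes Ins1 and Ins2, and was above both Sst and Ppy, the transcripts of somatostatin and pancreatic polypeptide. This held for 84 of the 847 cells of the library, or 9.92% (exact Clopper-Pearson 95% interval 7.99% to 12.1%, counting error only), and the series held 4687 cells in all. The remaining libraries came from islets of the same strain, 2 from pregnant and 2 from postpartum mice, and all were dissociated, viable islet cells. The stage of gestation, the time after birth, ages and any pooling of animals were not given in the sources used here. GEO's labels do not state whether replicate libraries were from different animals, so p-values may measure technical spread only.

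Proglucagon is cut by the convertase PC2, encoded by Pcsk2, to give glucagon, the hormone that raises hepatic glucose output when blood glucose is low. Beta cells cut proinsulin mainly with PC1/3, encoded by Pcsk1. Alpha cells are kept apart from beta cells by transcription factors such as Irx1 and Irx2. Amino acids as well as glucose regulate glucagon secretion.

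The promoters of Gcg, the gene that chose the cells, of Gpx3, a non-hormone transcript that set the cells far apart from beta cells, and of Iapp, which was low in them, are printed to show the sequences next to the genes the results turn on. Each is the RefSeq sequence (GRCm38.p6) of the 250 bases before the annotated start, 5′ to 3′ on the strand of the gene, and capitals mark matches to TATAAA on either strand. Gcg lies on the minus strand (chr2:62483654-62483903), and Gpx3 (chr11:54902604-54902853) and Iapp (chr6:142298175-142298424) lie on the plus strand.
Gcg: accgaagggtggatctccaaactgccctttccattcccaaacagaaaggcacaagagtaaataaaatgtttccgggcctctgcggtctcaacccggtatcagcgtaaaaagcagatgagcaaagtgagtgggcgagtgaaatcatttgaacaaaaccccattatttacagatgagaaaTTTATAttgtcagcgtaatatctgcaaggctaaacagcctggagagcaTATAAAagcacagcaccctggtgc
Gpx3: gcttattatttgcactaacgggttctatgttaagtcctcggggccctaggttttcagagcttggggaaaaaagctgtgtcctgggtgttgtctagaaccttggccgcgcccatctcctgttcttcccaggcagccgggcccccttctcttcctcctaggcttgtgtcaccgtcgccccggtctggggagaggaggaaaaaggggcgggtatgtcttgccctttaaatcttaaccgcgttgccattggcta
Iapp: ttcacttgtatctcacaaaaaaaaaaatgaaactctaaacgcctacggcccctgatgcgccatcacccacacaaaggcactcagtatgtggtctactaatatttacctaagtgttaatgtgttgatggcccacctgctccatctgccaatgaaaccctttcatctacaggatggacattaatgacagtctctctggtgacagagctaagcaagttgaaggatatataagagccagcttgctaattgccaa
Gcg held 2 matches, 1 of which began 24 bases before the start, while Gpx3 and Iapp held none. Over all 32851 promoters of 27025 genes, TATAAA was present in 12.4%, TAATTA, a core bound by many homeodomain proteins, in 4.84% and TGCTGA, a core bound by MAF factors, in 16.1%, each counted on both strands. Of 17 promoters available for 11 of the 15 genes with the highest alpha to beta ratio, described below, 5 held TATAAA (29.4%), 2 held TGCTGA (11.8%) and 0 held TAATTA. These shares count promoters and not genes. The TATAAA matches belonged to Gnas, Rbp4 and Etv1 only, and Gnas was counted at several starts, some with overlapping windows. Of 18 promoters available for 13 of the 15 genes with the lowest ratio, 1 held TATAAA (5.56%), 6 held TGCTGA (33.3%) and 1 held TAATTA (5.56%). A match describes these letters in this window and not a site in use.

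The 84 cells held 192269 UMIs, with 1000 in the shallowest cell, 2220 in the median cell and 5207 in the deepest. To compare non-hormone genes, counts per 1000000 UMIs (CPM) were computed on the 136355 UMIs that were left without 8 islet hormone transcripts and without Rn45s and Gm42418, which hold ribosomal RNA sequence. In alpha cells 1 UMI was then worth 7.33 CPM, and a count of 0 allowed up to 22.0 CPM. The reference was 274 beta cells (Ins1 and Ins2 at least 20% of UMIs, and Gcg, Sst and Ppy together under 1%), with 580250 non-hormone UMIs and a limit of 5.17 CPM. There were also 31 delta cells (Sst) and 30 gamma cells (Ppy), and 428 cells fell in none of these classes. After each cell was thinned to 1000 UMIs the median alpha cell showed 531.5 genes and the median beta cell 494. Scrublet called 3 doublets in the library, none of them a member.

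The insulin-rich cells of the library fell into separate groups, and this bears on every comparison with beta cells. In the plot of Gcg against insulin the beta cells had a median Gcg share of 0.0752%. Another 212 cells had at least 20% insulin and under 10% Gcg, but 1% or more of Gcg, Sst and Ppy together. In these the medians were 1.88% for Gcg, 0.677% for Sst, 0.698% for Ppy and 0.892% for Pyy. Gcg, Sst and Ppy defined these groups, so their levels are a description; Pyy, which did not, had a median of 0.0397% in the 274 beta cells. The median Sst share of the alpha cells was 0.0476%. The 212 cells also differed from the 274 in other genes: ribosomal protein transcripts were 6.38% of their non-hormone UMIs against 4.53%, and the matrix gene Sparc stood at 295 CPM against 27.6. In alpha cells the ribosomal share was 8.16% and Sparc stood at 51.3 CPM. Such cells made up 43.6% of insulin-rich cells here, 65.5% in pregnant 1, 12.5% in pregnant 2, 8.64% in postpartum 1 and 21.8% in postpartum 2. Alpha cells were therefore also compared with the 212 cells, called the second reference, a choice made after the data were seen.

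**Figure D1:**
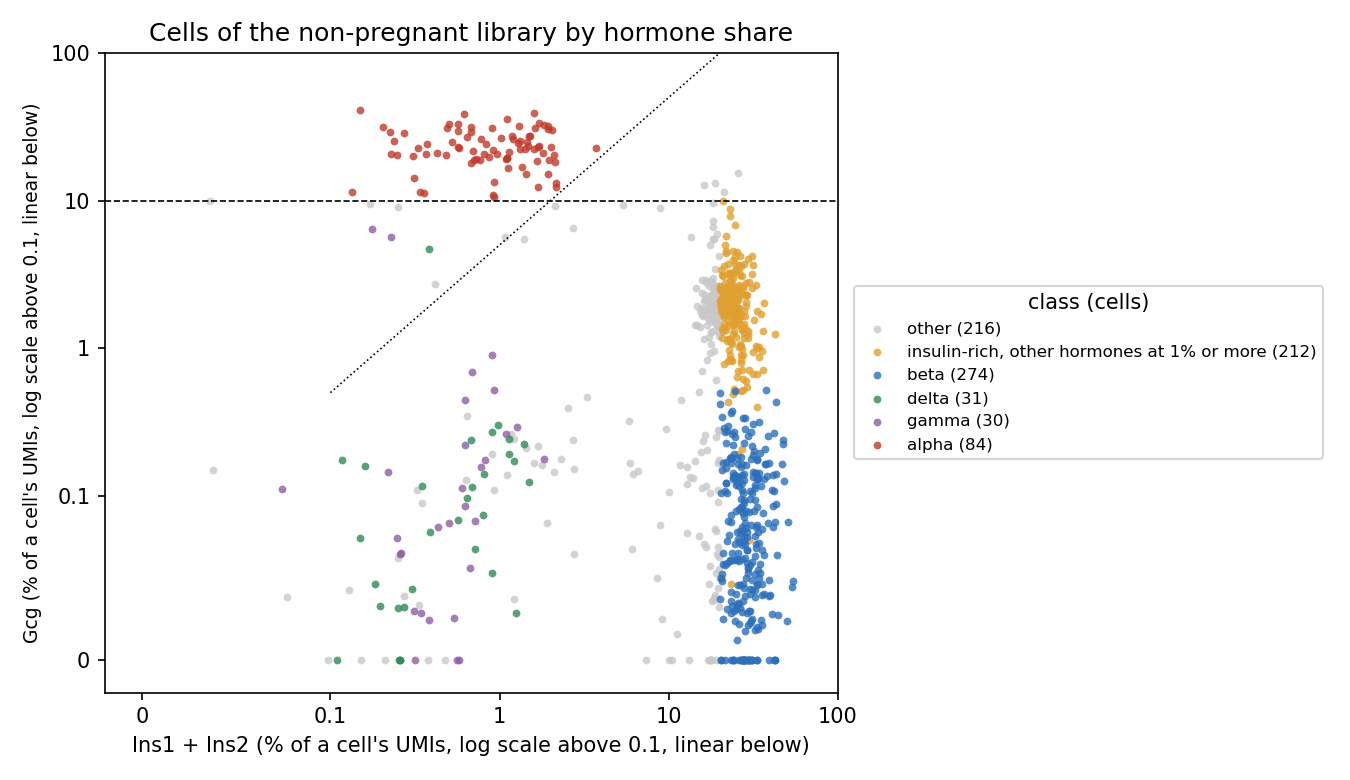
Each point is a cell of the non-pregnant library, placed by the share of its UMIs from Ins1 and Ins2 (horizontal) and from Gcg (vertical), both in percent on a scale that is logarithmic above 0.1. The dashed line is the Gcg minimum of 10% and the dotted line is Gcg at 5 times insulin; the 84 alpha cells lie above both, and the 212 insulin-rich cells with other hormones lie above most of the 274 beta cells in Gcg.

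The values that chose the members are a description. Gcg made up 23% of the pooled UMIs of alpha cells, from 10.6% in the lowest cell through a median of 22.7% to 41.3% in the highest. Insulin transcripts made up 0.990%, from 0.134% through 0.950% to 3.70%, against 29.4% in beta cells, and every member held at least 1 of them. The members nearest the limit had Gcg at 10.6%, 10.8% and 11.2%, and the first of these also had Ppy at 10.5%. Just outside it, cells that met the insulin ratio had 9.88%, 9.55% and 9.06%. Of 88 cells with Gcg at 10% or more, 4 were not members because they held 16.3% to 25.8% insulin. Their Gcg to insulin ratios were 0.539 to 0.788, against 5.75 in the member of lowest ratio.

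Low levels of the hormones of other classes are given for scale, since the rule used insulin and Gcg. Ins1 and Ins2 in alpha cells were 0.0300 of their CPM in beta cells, and delta (0.619%) and gamma cells (0.526%) had insulin shares of the same order. Gcg in beta cells was 0.00473 of its CPM in alpha cells, and Ttr 0.0238. Free RNA was not measured, so its part in these levels was not tested.

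Among hormones the rule did not use, Iapp and Pyy separated alpha cells from their neighbours in opposite ways. Iapp, which encodes the amyloid polypeptide that beta cells co-secrete with insulin, made up 0.445% of the UMIs of alpha cells, from 0% through a median of 0.321% to 3.97%. It was 6.58% in beta cells and 3.86% in delta cells, but 0.371% in gamma cells. Alpha and gamma cells were thus alike in low Iapp, and delta cells were not. Pyy, which encodes peptide YY, was 2.56% in alpha cells, from 0% through 1.75% to 16.4%, against 0.0884% in beta, 7.45% in delta and 12.5% in gamma cells. A Pyy UMI was present in 82 of 84 alpha cells, 55 had Pyy at 1% or more of UMIs, 18 at 5% or more, and 1 had more Pyy than Gcg. Ppy was at 1% or more in 15 members, and Ghrl, the ghrelin gene, had 0 UMIs in them.

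The hormones varied together in part across the 84 cells, which share 1 library. Spearman correlations, given as descriptions, were 0.34 between the Gcg and Ttr shares, -0.31 between Gcg and Pyy and 0.49 between Pyy and Ppy. Cells richer in Gcg thus tended to have more Ttr and less Pyy, although shares of 1 total constrain each other. Gcg share and the UMIs of the cell had a correlation of -0.08. The insulin share had a correlation of 0.03 with the ribosomal share.

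Ttr, Gnas and Gpx3 were the most abundant non-hormone transcripts that set alpha cells apart. Ttr encodes transthyretin, a carrier of thyroid hormone and of retinol-binding protein, and is a marker named for these cells. It made up 1.17% of all alpha cell UMIs, from 0.0512% through 1.04% to 3.37%, and had a UMI in 84 of 84 alpha cells against 122 of 274 beta cells. Gnas encodes the stimulatory G protein alpha subunit, which couples hormone receptors to cyclic AMP, and made up 1.02%, from 0.0672% through 0.915% to 2.29%. Gpx3 encodes the secreted glutathione peroxidase of plasma and made up 0.354%, from 0.0562% through 0.321% to 0.959%. Every alpha cell thus held all 3 transcripts, and the spread of each over cells was wide.

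**Figure D2:**
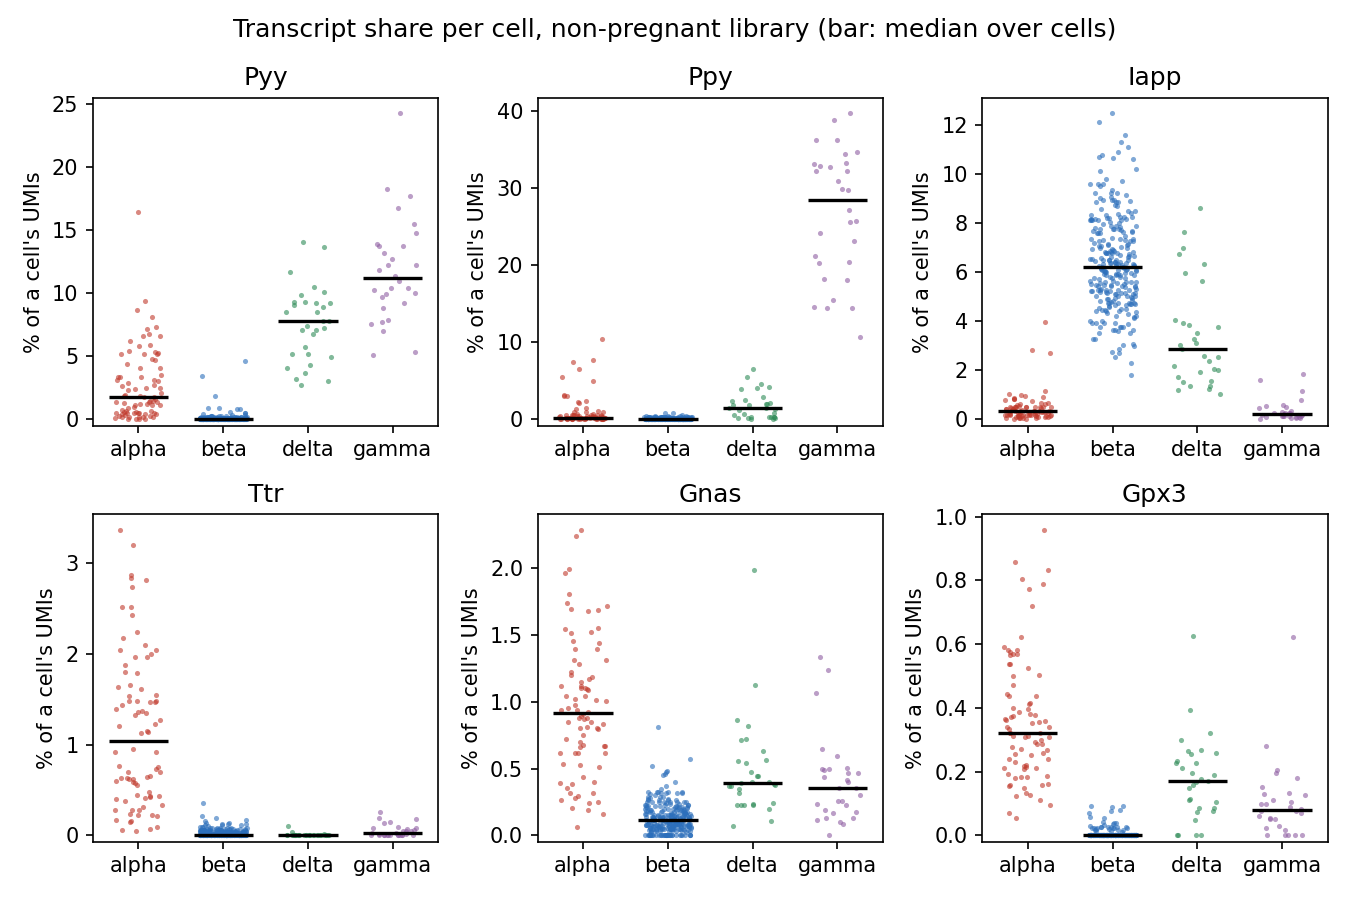
Each point is a cell of the non-pregnant library in 1 of 4 classes, with the share of its UMIs in percent from Pyy, Ppy, Iapp, Ttr, Gnas and Gpx3 on linear axes; horizontal bars are medians over cells. Ttr is highest of the 4 classes in alpha cells (median 1.04%), Iapp is high in beta and delta cells, and Pyy is highest in gamma cells.

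The given markers bore out the label, within the depth of the library. Ttr was at 16435 CPM in alpha and 391 CPM in beta cells, a ratio of 42.0 (95% counting interval 36.6 to 48.4). Irx1, a homeodomain factor, had 42 UMIs against 3 (59.6-fold, 19 to 300) and Irx2 16 against 2 (34.0-fold, 8.0 to 305), and neither had a UMI in delta cells. In gamma cells Irx1 had 0 UMIs and Irx2 had 2 (36.7 CPM, against 117 CPM in alpha cells). Gc, the vitamin D-binding protein, had 82 against 42 UMIs (8.31-fold, 5.66 to 12.4), but stood as high in delta (607 CPM) and gamma cells (899 CPM) as in alpha cells (601 CPM). Ttr was thus higher in alpha cells than in each of the other 3 classes (226 CPM in delta and 918 CPM in gamma cells), while Gc was of like level in the non-beta classes. Irx1 stood at 308 CPM in alpha cells, above the limits of a count of 0 in delta (52.1 CPM) and gamma cells (55.1 CPM). For Irx2 the counts in delta and gamma cells were too few to set an order among the non-beta classes. Ratios and intervals like these compare the cells of 1 library, cover counting error only and carry no test between animals.

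Markers of cell types outside the endocrine islet were few in the 84 cells. Of 12 acinar markers 3 were at 0, with 39 UMIs in all, and the endothelial, mesenchymal, Schwann and macrophage lists summed to 11, 14, 8 and 15 UMIs. The 6 markers of T, B and NK cells summed to 2 UMIs and the 5 of erythroid cells to 1. The ductal list reached 266 UMIs, but 229 of these were Spp1, an osteopontin gene that was also listed among secreted alpha cell proteins. Markers of the neighbouring endocrine classes were not few. The 5 delta markers summed to 800 UMIs, of which Sst gave 704, Rbp4 94 and the delta factor Hhex 2. The 5 gamma markers summed to 6737 UMIs, of which Pyy gave 4920 and Ppy 1806. Their part in the differences from beta cells was not tested.

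Over the 3080 non-hormone genes with at least 50 UMIs in alpha and beta cells together, 154 (5%) were at least 2-fold higher in alpha cells and 570 (18.5%) at least 2-fold lower. The median gene stood at a log2 ratio of -0.18 with non-hormone UMIs as the denominator and at -0.01 with all UMIs, when 233 genes were higher and 474 lower. Because beta cells held more UMIs, the 50-UMI minimum admitted genes of low level more easily on the beta side. With a minimum mean of 50 CPM over both classes instead, 436 of 4163 genes (10.5%) were higher and 586 (14.1%) lower.

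Against the second reference 124 of 2180 genes were at least 2-fold higher (5.69%) and 310 lower (14.2%). Of the 154 higher genes 129 had 50 UMIs in this comparison and 63 of those (48.8%) were again at least 2-fold higher. Of the 570 lower genes 310 could be compared and 235 (75.8%) were again lower. A smaller share of the higher than of the lower calls was thus found against both references. These shares cannot rank the calls, because the second reference was chosen for its Gcg, Sst and Ppy. It also held more Ttr than beta cells (2063 against 391 CPM) and more Gpx3 (479 against 65.5 CPM). Genes high in alpha cells could thus have smaller ratios to it by this choice. Both comparisons used the same alpha cells, so they are not independent.

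**Figure D3:**
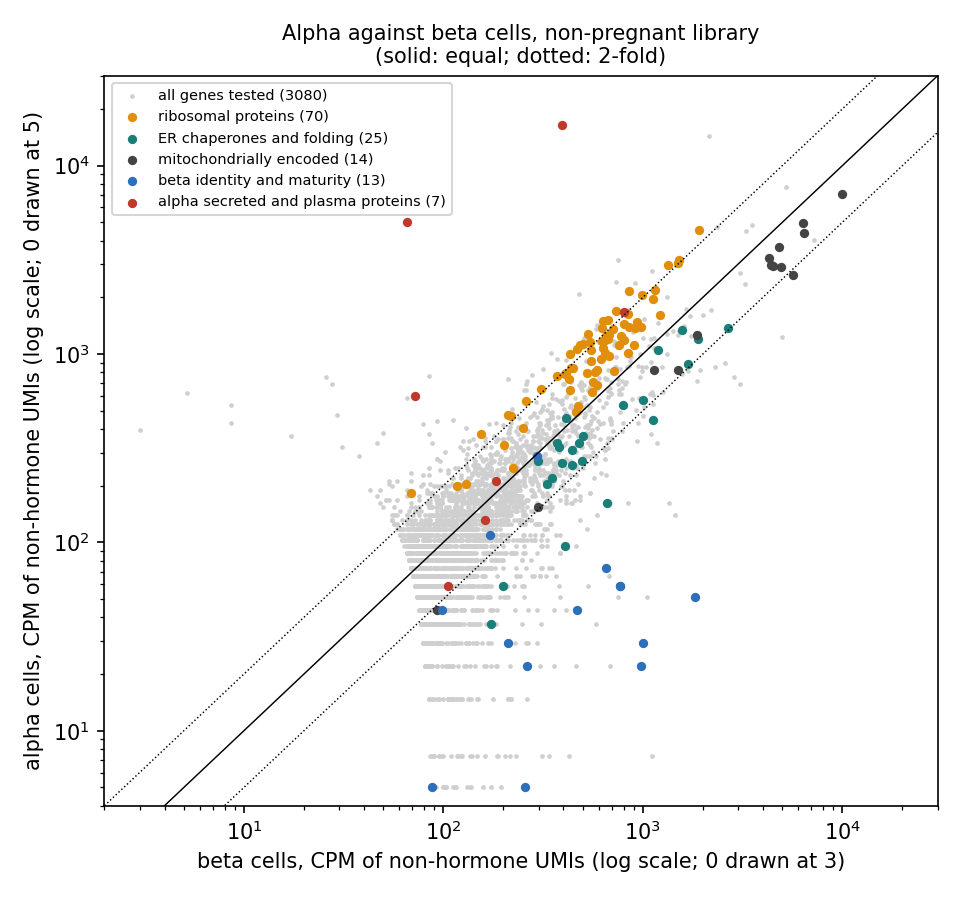
Each point is a gene with at least 50 UMIs, placed by its CPM in beta cells (horizontal) and alpha cells (vertical) of the non-pregnant library on log scales, with 5 gene lists in colour; the solid line is equality and the dotted lines are 2-fold. All 70 ribosomal protein genes lie above the line, 24 of 25 ER chaperone genes and all 14 mitochondrially encoded genes lie below it, and Ttr and Gpx3 stand far above it.

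The 15 genes whose counting interval lay farthest above 1 included ion channel, secreted and signalling genes; they were picked by this contrast, so their direction is no finding. Kcnk3, a leak potassium channel, had 85 UMIs in alpha and 3 in beta cells, a ratio of 121 (39.9 to 596). Sfrp5, a secreted antagonist of Wnt ligands, had 54 against 0. Its ratio was 76.6 with the 0 over the beta cells taken as 3 counts, and its counting interval began at 60.2. Gpx3 had 681 against 38, a ratio of 76.3 (55.0 to 109). Kcnk3 and Sfrp5 were thus at or under the limit of 3 counts in beta cells, while Gpx3 stood at 65.5 CPM there (46.3 to 89.9), above it. After thinning, 32.1% of alpha cells and 0.365% of beta cells held a Kcnk3 UMI, and for Gpx3 the shares were 96.4% and 4.01%.

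The kinase gene Lmtk3 (73 against 5 UMIs, 62.1-fold) and the translation elongation factor Eef1a2 (59 against 5, 50.2-fold) followed. Lower in the list were the retinol carrier Rbp4 (25-fold), the bHLH inhibitor Id1 (21.3-fold), the tetraspanin Cd81 (16.3-fold) and the carnitine palmitoyltransferase gene Cpt1c (10.4-fold). The last were Pappa2, a protease of IGF-binding proteins (9.03-fold), the ETS factor Etv1 (8.96-fold), Gc (8.31-fold) and Gnas (6.73-fold, 6.26 to 7.23). 6 of the 15, among them Sfrp5, Ttr, Lmtk3, Eef1a2 and Cpt1c, were at least 2-fold above both delta and gamma cells. The other 9 were less than 2-fold above delta cells, gamma cells or both. Rbp4 was at 4252 CPM in delta cells against 689 in alpha cells, Gpx3 at 2759 against 4994, and Etv1 at 716 in gamma cells against 587. Kcnk3 was at 422 CPM in gamma cells against 623 in alpha cells. In the same order Cd81 was at 606 against 477, Id1 at 294 against 367 and Pappa2 at 477 against 763. Some of these 9 still lay above both classes: Gnas was 1.94-fold above delta and 1.86-fold above gamma cells, and Gpx3 was 1.81-fold and 2.90-fold above them.

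Against the second reference 14 of the 15 were again at least 2-fold higher, and Rbp4 was not (1.96-fold, 1.49 to 2.56). The sizes were smaller: 7.97-fold for Ttr (7.35 to 8.64), 10.4-fold for Gpx3 (8.87 to 12.3) and 20.9-fold for Kcnk3 (11.4 to 42.1). Ttr stood at 2063 CPM in those cells, 479 CPM was the level of Gpx3, and their Gcg share was also above that of beta cells, as given above.

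Gene positions (RefSeq, GRCm38.p6) place Gcg at chr2:62474530-62483653, Gpx3 at chr11:54902854-54910387, Kcnk3 at chr5:30588170-30625270 and Gnas at chr2:174284320-174346744. Values are per gene and are not divided between exons or isoforms. Of 29 ranked genes looked up, 11 overlapped another RefSeq gene, such as Gnas with its antisense gene Gnasas1 and Prss53 with Zfp646. Whether counting used strand is not given in the sources used here, so reads of such pairs cannot be told apart.

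The 15 genes farthest below 1 were likewise picked by this contrast. Prss53, a serine protease gene, had 1 UMI in alpha and 647 in beta cells (ratio 0.00658). Ucn3, the urocortin that beta cells secrete to delta cells, had 3 against 569 (0.0224), and G6pc2, the islet glucose-6-phosphatase, 7 against 1056 (0.0282). Prlr, the prolactin receptor, had 4 against 578 (0.0294), and Pcsk1 3 against 397 (0.0322, 0.00660 to 0.0947). All 5 thus had between 1 and 7 UMIs in alpha cells.

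Sytl4, which encodes the granule protein granuphilin, had 0 UMIs against 149, and Gad1, which makes GABA, had 0 against 113. With the 0 taken as 3 counts they were 11.7-fold and 8.85-fold lower. The other named genes were Fam83e (1 against 248), Ppp1r1a (1 against 196), Nupr1 (1 against 182), Pdyn (3 against 267), Bace2 (7 against 606), Spock2 (5 against 339) and Hadh (7 against 436). Atf5, a stress-response transcription factor, had 19 against 844 (0.0958, 0.0574 to 0.151). All 15 were also at least 2-fold lower against the second reference. Beside the ratio of 0.0300 of Ins1 and Ins2 given above, 7 of the 15 were at or below it, and 14 of the 15 intervals held it. Whether the few UMIs of these genes came from the alpha cells themselves was not tested.

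**Figure D4:**
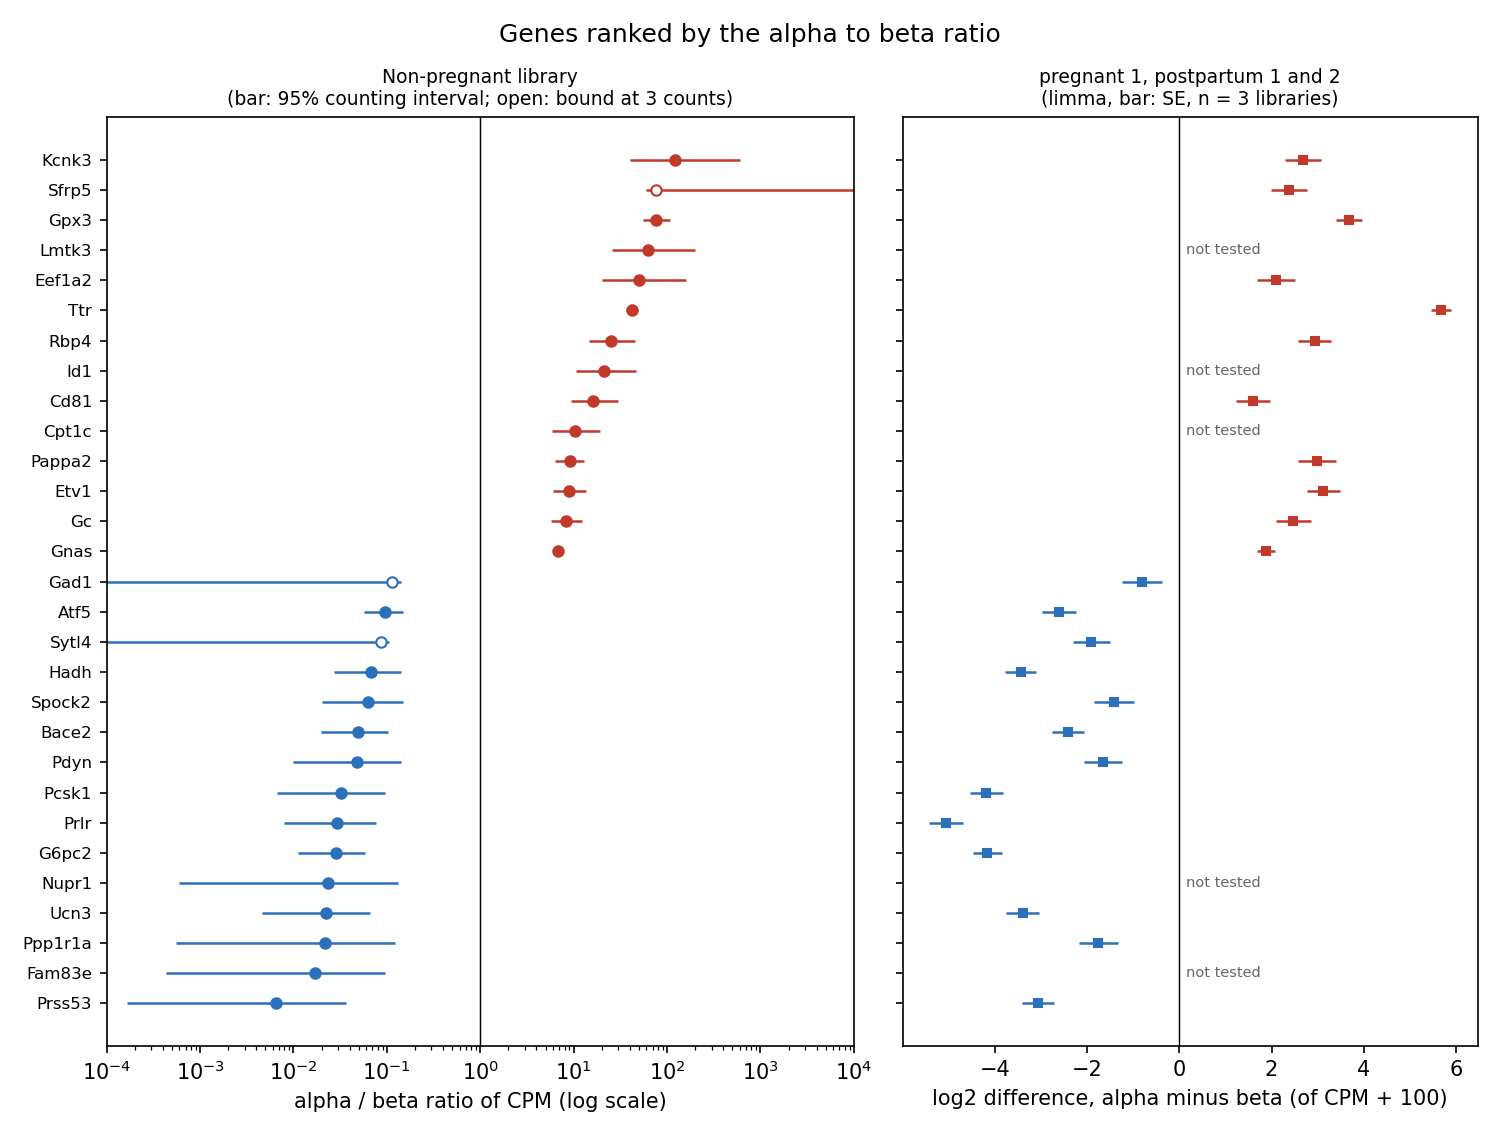
The left panel gives the alpha to beta ratio of CPM in the non-pregnant library on a log scale with 95% counting intervals. Open points take a count of 0 as 3 counts. The right panel gives the log2 difference in 3 other libraries (pregnant 1, postpartum 1 and postpartum 2) with its standard error from limma. Genes above 1 on the left lie above 0 on the right wherever they were tested, and genes below 1 lie below 0.

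Transcription factors were too scarce for most to be counted. Of 8 alpha identity factors 3 reached 50 UMIs. Of these 2, Etv1 among them, were at least 2-fold higher, beside 5% of all genes, and Peg3 was at 1.31-fold. Of 20 genes of beta cell identity and maturity 13 reached 50 UMIs, with a median ratio of 0.0939 beside 0.884 over all genes. Of the 13, 11 were at least 2-fold lower and 0 higher, beside 18.5% and 5% of all genes. Pdx1 (4 against 122 UMIs), Nkx6-1 (6 against 272) and Slc2a2, the glucose transporter (3 against 153), were among them. Mafa could not be judged, with 1 UMI over all cells of the library. Of 7 measured factors shared by endocrine cells 1, Insm1 (0.424), was past 2-fold. Neurod1 (0.536, 0.364 to 0.767) was lower by less than that, and Isl1 (1.22) and Pax6 (0.959) had intervals that held 1.

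Prohormone processing genes split by convertase. Pcsk2 was 1.48-fold higher in alpha cells (1.38 to 1.59) while Pcsk1 had the ratio of 0.0322 given above, and Pcsk1n, the proSAAS inhibitor of PC1/3, was 2.00-fold higher (1.82 to 2.20). Of 21 measured granins and granule proteins 2 were at least 2-fold higher (Pcsk1n and Resp18, 2.47-fold) and 5 lower, Scg2 (0.248) and Chgb (0.482) among them, beside 5% and 18.5% of all genes. The median ratio of 0.815 was close to the 0.884 of all genes, and neither count stood far from the shares of all genes. Among 12 channel genes Kcnk3 and Kcnj11 (2.13-fold) were higher, and Trpm5 and Atp1b1 lower. Trpm5 had 0 against 51 UMIs and was 3.99-fold lower with the 0 taken as 3 counts.

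Receptor transcripts were sparse. Of 23 listed receptors of islet signals 4 had 50 UMIs. Prlr, Igf1r (22 against 785 UMIs, 0.119) and Sstr3 were at least 2-fold lower in alpha cells, beside 18.5% of all genes. Glp1r had 0 UMIs in alpha and 5 in beta cells, which is not a detectable difference at this depth.

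Genes of amino acid handling included some on each side. Of 13 measured, 4 (beside 5% of all genes) were at least 2-fold higher, among them Slc7a2 (3.84-fold), a cationic amino acid transporter, Slc7a8 (2.73-fold), a neutral amino acid transporter, and Glud1, glutamate dehydrogenase (3.12-fold). Asns (0.215), Glul (0.368) and Got1 (0.269) were at least 2-fold lower, a count near the 18.5% of all genes; the first makes asparagine and the second glutamine. All 4 higher genes stayed at least 2-fold higher against the second reference, with Slc7a2 at 2.95, Slc7a8 at 4.99 and Glud1 at 4.17. Slc38a4 had a ratio of 1.41 (1.03 to 1.90).

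All 70 measured ribosomal protein genes had ratios above 1, beside 1250 of all 3080 genes. Among the 70, 23 were at least 2-fold higher, beside 5% of all genes, and the median was 1.85 beside 0.884. As a share of all UMIs these transcripts were 5.79% in alpha cells, from 2.47% through a median of 5.81% to 9.93%, against 2.86% in beta, 4.11% in delta and 4.23% in gamma cells. Of non-hormone UMIs they were 8.16% in alpha, 4.53% in beta, 6.06% in delta and 7.15% in gamma cells, so gamma cells lay nearer to alpha cells on this scale. Rps23 (2.37-fold) and Rps21 (2.20-fold) were among the most abundant. Against the second reference 0 of 70 were at least 2-fold higher and 59 were above 1, with a median of 1.29 beside 0.947 over all genes, so the size of this difference followed the choice of insulin-rich cells. Ribosomal protein genes have near-identical copies in the genome, which makes single values uncertain.

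Genes of protein folding in the endoplasmic reticulum (ER) lay lower in alpha cells against both references. Of 25 measured 24 were below 1, beside 1830 of all 3080 genes, and the median ratio was 0.629 beside 0.884. The 6 that were at least 2-fold lower were a share near the 18.5% of all genes. Against the second reference 22 were below 1, and 6 were at least 2-fold lower, beside 14.2% of all genes. The median was 0.641 beside 0.947. Sdf2l1 (0.233), Dnajb9 (0.244) and P4hb (0.397), which assist or modify folding proteins, and the chaperone Hspa5 (0.513, 0.438 to 0.598) were examples. Summed over the list, the share of UMIs was 0.814% in alpha, 1.21% in beta, 1.15% in delta and 0.663% in gamma cells. Alpha and gamma cells thus lay together on the low side.

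Glycolytic genes were below 1 in 13 of 13 measured against beta cells, with a median of 0.539 beside 0.884 over all genes. Slc2a2 was among the 6 that were at least 2-fold lower, beside 18.5% of all genes. Summed over the list, the share of UMIs was 0.135% in alpha, 0.221% in beta, 0.122% in delta and 0.111% in gamma cells. Set against the second reference, 6 were measured, of which 5 were below 1 and 1 was at least 2-fold lower, with a median of 0.856 beside 0.947. After thinning to 1000 UMIs 5 were measured and 0 were past 2-fold. Aldoa, a glycolytic enzyme outside glucose sensing, was at 0.475 (0.337 to 0.655) against beta cells but at 1.17 (0.799 to 1.69) against the second reference, which reverses its direction. All 14 measured mitochondrially encoded genes were below 1, with a median of 0.677 against beta cells and 0.507 against the second reference.

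Immediate early genes, which dissociation of tissue can induce, were in part higher in alpha cells. Of 13 measured 6 were at least 2-fold higher and 0 lower, beside 5% and 18.5% of all genes. Zfp36 (4.73-fold), Jun (3.99-fold) and Fos (2.96-fold) were among the 6. The immediate early and heat shock list took 0.400% of UMIs in alpha, 0.260% in beta, 0.639% in delta and 0.483% in gamma cells. Delta and gamma cells thus lay above alpha cells, and beta cells were lowest. After thinning to 1000 UMIs 6 of the list still had 50 UMIs and 0 were past 2-fold. Against the second reference 4 of 14 were at least 2-fold higher, beside 5.69% of all genes. The part of immediate early genes in other differences was not tested.

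Among the alpha cells themselves Ttr had the largest Fano factor of the named non-hormone genes, at 6.41. This factor is the variance over the mean of counts thinned to 1000 UMIs per cell. It can rise with the level of a gene, so it does not rank spread relative to the mean. Next came Lars2 (5.63), the metallothionein Mt2 (4.76) and Spp1 (4.12), against a median of 1.34 over 539 genes. Spc25 (3.46), Malat1 (3.23), Scg2 (3.11), Ago2 (2.90), Gnas (2.86) and Cplx2 (2.80) completed the 10 highest. The same median was 1.3 over 510 genes in beta cells. Gm42418 took up to 27.4% of the UMIs of 1 alpha cell, with a median of 0.140%.

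The comparison was repeated in the libraries the rule of the members had not used, with the same hormone limits. They held 113 alpha and 571 beta cells in pregnant 1, 21 and 70 in pregnant 2, 106 and 349 in postpartum 1 and 160 and 648 in postpartum 2. Pregnant 2 stood apart, with 14933 UMIs in all and a median of 81 per cell, so that a count of 0 in its alpha cells allowed up to 2496 CPM. With all 4 libraries, limma on log2 of (mean CPM + 100), with the library as a block, called 0 of 1881 genes (0%) at an adjusted p under 0.05, although 181 had an unadjusted p under 0.05. On the recovered UMIs of the same libraries edgeR called 31 of 886 genes higher (3.5%) and 49 lower (5.53%). Without pregnant 2, limma called 94 of 2351 genes higher in alpha cells (4%) and 164 lower (6.98%), so that 1 library decided these calls. Without it edgeR called 101 of 1132 genes higher (8.92%) and 136 lower (12%).

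The genes ranked by the ratio that could be tested kept their direction there. Of the 15 higher genes 13 were in those files and 12 could be tested. All 12 had the same direction with 4 libraries, 0 of them called by limma and 11 called by edgeR, and all 12 were called by limma without pregnant 2, beside 4% of all genes. Of the 15 lower genes 10 were tested by limma with 4 libraries, all in the same direction and 0 called, and edgeR called 8 of the 8 it tested. Without pregnant 2, 13 were tested, all in the same direction, and 12 were called, all but Gad1, beside 6.98% of all genes.

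Ttr gives the clearest case. Its mean CPM was 20677 in alpha and 576 in beta cells of pregnant 1, 68006 and 843 in postpartum 1 and 65165 and 974 in postpartum 2. In pregnant 2 it was 11676 and 0, on 16 and 0 UMIs. It was higher in alpha cells in 4 of 4 libraries, and the classes did not overlap. The log2 difference was 5.98 ± 0.54 (SE, n = 4 libraries, limma adjusted p = 0.0635) and 5.68 ± 0.22 without pregnant 2 (n = 3, limma adjusted p = 2.4e-17). The fit without pregnant 2 had 2 residual degrees of freedom and 24.9 from the spread pooled over genes. With all 4 libraries these were 3 and 2.54. The p-values without pregnant 2 thus rest mostly on spread pooled over genes and not on the spread of each gene among 3 libraries. Gpx3 stood at 5130, 12346, 2496 and 2833 CPM in alpha cells of pregnant 1, pregnant 2, postpartum 1 and postpartum 2, against 0 to 209 CPM in beta cells, a log2 difference of 3.68 ± 0.29 without pregnant 2 (limma adjusted p = 4.0e-10). The pregnant 2 value rested on 7 UMIs, and the median Gpx3 share over its 21 alpha cells was 0%.

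Gnas (1.88 ± 0.20), Kcnk3 (2.68 ± 0.39) and the transcription factors Etv1 (3.12 ± 0.36), Irx1 (2.27 ± 0.41) and Irx2 (1.89 ± 0.41) were also called higher without pregnant 2 (limma, log2 difference ± SE, n = 3 libraries). With all 4 libraries their limma adjusted p was 0.498. The log2 scale with 100 CPM added understates the change of low genes. Pcsk2 was called higher without pregnant 2 (0.86 ± 0.16), as was Pcsk1n (1.27 ± 0.25). With all 4 libraries neither was called, at 0.45 ± 0.48 and 0.57 ± 0.68 (limma adjusted p = 0.653 and 0.689). Both were lower in alpha cells of pregnant 2. On the low side Prlr fell by 5.06 ± 0.37, Pcsk1 by 4.18 ± 0.35, Mafa by 3.05 ± 0.32 and Scg2 by 2.25 ± 0.23 in the fit of 3 libraries without pregnant 2. Mafa, not measurable in the non-pregnant library, thus stood at 1260 to 1844 mean CPM in beta cells and 72.5 to 99.3 in alpha cells of these 3 libraries.

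The lists were described in the same 3 libraries, where 4% of all genes were called higher and 6.98% lower. Of 23 ER folding genes 22 were below 0 and 9 were called lower, with a median log2 difference of -0.86 beside -0.08 over all genes, and 0 were called higher. Of 55 ribosomal protein genes 48 were above 0 and 9 were called higher, with a median of 0.53. Of 11 beta identity genes 10 were called lower. Of 21 granins and granule proteins Resp18 and Pcsk1n were called higher and 6 were called lower. Of 21 immediate early and heat shock genes Atf3, Hspa1a and Hspa1b were called higher and Dusp1 lower, genes other than the 6 past 2-fold in the non-pregnant library. The ratio of ribosomal sums was 1.97 in pregnant 1, 1.38 in postpartum 1 and 1.5 in postpartum 2, beside 1.80 against beta cells and 1.28 against the second reference in the non-pregnant library.

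**Figure D5:**
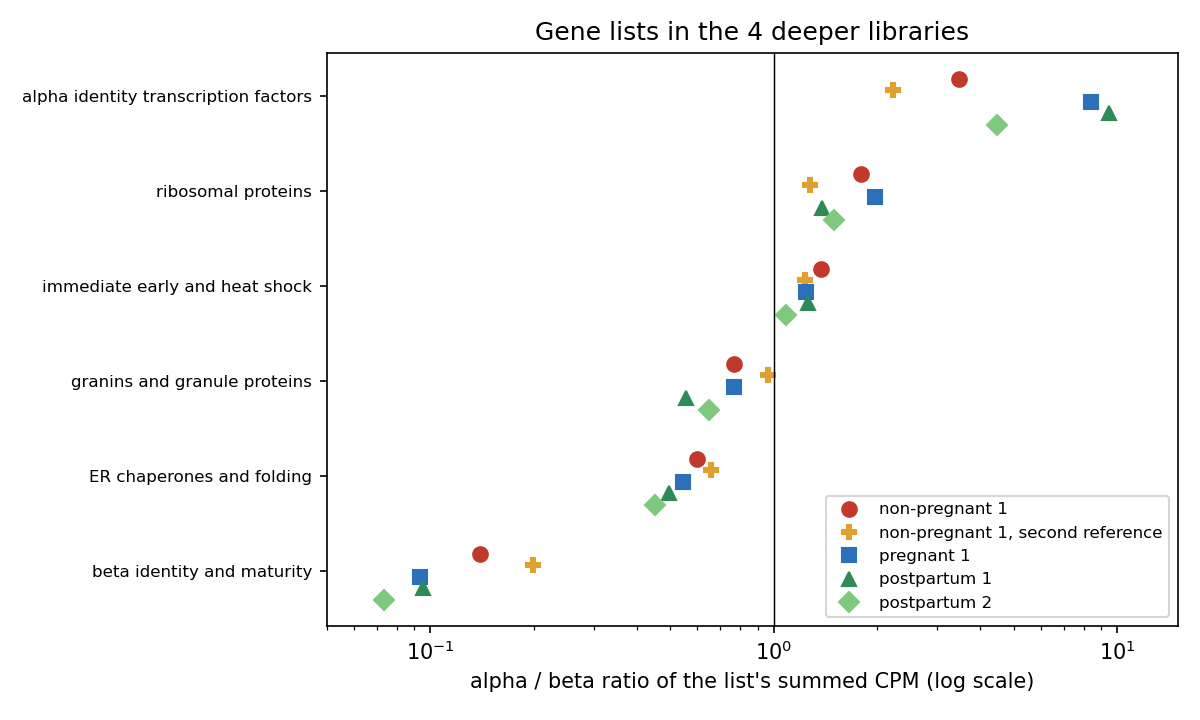
Points give the ratio of the summed CPM of a gene list in alpha cells to that in beta cells, on a log scale, for the non-pregnant library (also against the second reference of insulin-rich cells with other hormones), pregnant 1 and both postpartum libraries. Ribosomal and alpha factor lists lie above 1 and ER folding and beta identity lists below 1 in each, with the ribosomal ratio at 1.80 against beta cells and 1.28 against the second reference.

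Levels of alpha cells across libraries are set side by side without a test, since the non-pregnant file differs from the others in scale, features and depth and has no replicate. On the genes shared by all files, Gcg took 27.3% of the UMIs of non-pregnant alpha cells, 32.5% and 36.8% in pregnant 1 and pregnant 2, and 54.7% and 51.3% in postpartum 1 and postpartum 2. Ttr took 1.39%, 1.24%, 0.809%, 2.87% and 2.92% in the same order. Both were thus highest in the postpartum libraries, and the non-pregnant value lay lowest of the 5 for Gcg. Pyy took 3.04%, 5.43%, 1.52%, 2.05% and 2.65%, an order that did not follow the groups. Gpx3 ran the other way from Gcg in the deeper libraries, at 0.421% in the non-pregnant, 0.297% in pregnant 1 and 0.117% and 0.136% in the postpartum libraries.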

How the data were processed

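The authors deposited the non-pregnant file as a linear signal in which every cell sums to 3023.99, and the pregnant and postpartum files as log2 of CPM + 1 over 6695 features; the whole numbers of UMIs were recovered as multiples of the smallest value of each cell (100% within 0.1 of a whole number). Per the submitters' processing notes the tools were Partek 8.0 and Bowtie 1.1.1 and the builds GRCm38 and mm10, with no role given. What counted the reads, the annotation and the limits on cells were not given in the sources used here.

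Members, reference and gene lists were chosen with earlier results of these data known. Delta and gamma cells were chosen by the analogous rule. In the non-pregnant library UMIs were summed per class. Ratios carry exact binomial 95% counting intervals, and a gene needed 50 UMIs to be counted past 2-fold. The named genes were the markers, the 15 genes whose interval lay farthest above 1 and the 15 farthest below it, the 10 of largest Fano factor, and up to 4 members per list with the most UMIs, besides the alpha and beta identity lists; others named in the text were chosen after their values were seen. The other libraries were tested with limma 3.58.1 (R 4.3.3, two-sided, Benjamini-Hochberg adjustment, pseudocount of 100 CPM, minimum mean of 100 CPM) on the mean CPM over cells per class and library. The library was a block, since both classes come from the same library. The test planned for these normalized values was limma, and edgeR 4.0.16 and DESeq2 1.42.0 on recovered UMIs were alternatives. Files were matched on 6631 genes. Some genes are not reported here. The 26 symbols turned into dates were left out, 0 columns belonged to another series, and cells are numbered, so barcodes shared between libraries were not analysed here. Scrublet ran within scanpy 1.11.5. The ratio code and the limma fit were tested on simulated data. Promoter sequences and gene positions are from RefSeq (GRCm38.p6).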

Additional observations from a re-analysis of the deposited data

Results flagged for a closer look

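For 8 of the named genes that are reported the alpha to beta direction in the non-pregnant library was opposite to that in every library of another group; none of these differences was tested, and the non-pregnant counting interval held a ratio of 1 in 6 of them. Mt2, a metallothionein, had a log2 ratio of -1.93 in the non-pregnant library (0.263, 0.213 to 0.321) and was higher in alpha cells of postpartum 1 (1.3) and postpartum 2 (2.05), with intervals of 0.890 to 1.86 and 1.66 to 2.52. Atp5l, an ATP synthase subunit, had 0.5 (1.42, 1.11 to 1.80) and was lower in the postpartum libraries on 1 and 3 alpha cell UMIs. The imprinted RNA Meg3 had -0.2 and postpartum ratios of 1.59 and 1.66. The chaperones Hsp90aa1 (-0.32) and Hspa8 (-0.24) and the zinc transporter Slc30a8 (-0.04) were lower in the non-pregnant and higher in the postpartum libraries. Slc3a2 (0.3) was higher in the non-pregnant and lower in the pregnant libraries. Spc25 (0.01) stood near 1 in the non-pregnant library and was lower in pregnant 1 (0.351), postpartum 1 (0.412) and postpartum 2 (0.269), with 0 alpha and 1 beta cell UMI in pregnant 2. The files differ in features and depth, which cannot be told apart from the groups.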

How the results depend on the processing

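Requiring Gcg above 20 times insulin left 46 alpha cells. The 154 genes higher and 570 lower became 71 and 150 of 816 after thinning, 587 and 1278 at 20 UMIs, 43 and 95 at 200 UMIs, and 24 and 182 at 4-fold; 233 were higher with all UMIs as the denominator. Of alternatives chosen after the data were seen, a mean of 50 CPM gave 436 higher, cells between the quartiles of alpha depth gave 72 and 90, the second reference gave 310 lower and all insulin-rich cells gave 235 higher. Aldoa reversed to a log2 ratio of 0.23 against the second reference. In the other libraries the 0 and 0 genes called by limma became 1 and 5 without a filter, 31 and 49 with edgeR, 39 and 14 with DESeq2 and 101 and 136 with edgeR without pregnant 2 (chosen after the data were seen). Without the library as a replicate block, which pairs both classes of a library, 1 gene was called higher and 2 lower. Leaving out 1 library at a time gave 0 to 94 higher and 0 to 164 lower, the highest without pregnant 2. The log2 difference of Malat1 was -0.06 and ran from -0.46 without postpartum 2 to 0.83 without pregnant 2 (0.80 with edgeR); the cause was not tested. The non-pregnant group is 1 library, genes under 50 UMIs were not ranked, and in alpha cells a count of 0 allows up to 22.0 CPM, which limits most transcription factors and receptors.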

Other observations

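Genes of the respiratory chain, antioxidant enzymes and antigen presentation were also counted. Of all genes compared with beta cells 5% were at least 2-fold higher and 18.5% lower. Of 44 measured nuclear respiratory chain genes 3 were at least 2-fold lower in alpha than in beta cells of the non-pregnant library (Atp5g1, Cycs and Ndufb2) and 0 higher, with a median ratio of 0.815 beside 0.884 over all genes. Against the second reference 7 of 43 were at least 2-fold lower, beside 14.2% of all genes, with a median of 0.736 beside 0.947. Of 15 antioxidant genes Gpx3 was higher and Hmox1, Mt1 (0.226) and Mt2 (0.263), which bind metals, were lower, and the median was 0.947. Gpx4, an intracellular relative of Gpx3, had 116 UMIs in alpha cells and a ratio to the second reference of 0.942 (0.757 to 1.16). None of 6 class I antigen presentation genes was past 2-fold against either reference, with ratios to beta cells from 0.844 to 1.46. Fbp1, a gluconeogenic enzyme gene, had 15 UMIs in alpha cells and 0 in beta cells, a ratio of 21.3 with the 0 taken as 3 counts. Fbp1 was on the list of beta cell identity and maturity, but held too few UMIs to be among its measured genes. Its direction was thus opposite to that of the lower genes of that list. The second reference held 14 Fbp1 UMIs, and the ratio to it was smaller, at 3.17 (1.42 to 7.08).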
